A study of Homo sapiens with 6 samples.

Results

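The translation initiation factor genes of D283 Med cells were taken as all protein-coding genes whose symbol starts with EIF1, EIF2, EIF3, EIF4, EIF5 or EIF6, without the EIF2AK kinases, the EIF4EBP genes and pseudogenes. The rule found 49 genes among 60664 in the count tables, and 48 of them passed the filter on low counts. The gene that did not pass was EIF4E1B, a germ-cell relative of EIF4E, which had 1 read in 1 library. D283 Med is a human medulloblastoma line of Group 3, the subtype in which MYC is often amplified, and this line carries such an amplification. The tested cells had been transfected with an LNA GapmeR, an antisense oligonucleotide that directs RNase H to its target RNA, against the long non-coding RNA lncMB3 (labelled KD, 3 libraries). The comparison cells had received a control GapmeR (labelled SCR, 3 libraries). All libraries were of polyA+ RNA from this 1 line.

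Totals ran from 7765826 counts in KD library 1 to 20035834 in SCR library 2, so low genes were least precise in KD library 1. Whether replicates were grown and transfected apart is not in the labels, and the p-values therefore cover only library-to-library spread, possibly technical. The lncMB3 transcript itself was not analysed here, and directions rest on the labels. Of the lineage checks, OTX2 was at 723 to 922 CPM (read counts scaled to library size) and MYC at 1103 to 1278 CPM over the 6 libraries, while the immune marker PTPRC, the glial marker GFAP and the epithelial marker CDH1 reached at most 0.157 CPM. The fibroblast collagen COL1A1 was at 13.7 to 17.3 CPM in KD and 18.1 to 21.8 CPM in SCR libraries. OTX2, its relative CRX and COL1A1 were called lower in KD cells (log2 changes -0.28, -0.44 and -0.36), and their part in the results was not tested.

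Initiation begins when eIF2 brings the initiator methionyl-tRNA to the small ribosomal subunit together with eIF1, eIF1A, eIF3 and eIF5. The cap-binding complex eIF4F, made of the cap-binding protein eIF4E, the scaffold eIF4G and the RNA helicase eIF4A, loads this assembly onto the 5′ end of an mRNA, where it scans for a start codon. After start-codon recognition eIF5B joins the large subunit, and the guanine nucleotide exchange factor eIF2B recharges eIF2 for another round. Phosphorylation of eIF2 blocks eIF2B, and binding of 4E-BP proteins to eIF4E blocks eIF4F, which makes both steps points of control. MYC is known to drive genes of the translation machinery in many tumours.

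Initiation factor transcripts were higher in KD cells in 22 of the 48 genes tested and lower in 0 (edgeR's quasi-likelihood test, adjusted p under 0.05 over all 14673 genes tested). Across all genes tested 15.9% were called higher and 15.9% lower, 31.7% in all. Of the 48 genes 1, EIF4E3, had a negative change with an unadjusted p under 0.05, and limma-voom and DESeq2 also called 0 lower. The 3 KD libraries all lay above the 3 SCR libraries in 28 genes, against 22.9% of all genes, and all below in 3 genes, against 23.1%. Groups that did not overlap in either direction made up 46.0% of all genes. The changes were small. The median log2 change (KD over SCR) was 0.24 over the 48 genes and 0.00028 over all genes tested. Genes called higher by at least 1.5-fold were 5 of the 48, and 501 of all 14673 genes tested (3.41%). Among genes called higher, they were 5 of 22 and 501 of 2328. Together the 48 genes took 1.62%, 1.69% and 1.61% of scaled counts in the KD libraries, against 1.52%, 1.44% and 1.39% in the SCR libraries.

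The number of calls depended on scaling and on single libraries. With upper-quartile scaling 18 of these genes were called higher and 1 lower, while the calls over all genes turned from 2328 higher and 2329 lower to 1773 higher and 2803 lower. Without SCR library 2 only 9 of the 48 were called higher, and 1264 genes overall. Without SCR library 3 the number was 15, and without each of the other libraries it was 18 to 23. SCR library 1 was the control nearest to the KD mean in 20 of the 22 called genes (90.9%), and in 82.0% of all genes called higher. Calls that held in every fit with 1 library left out were those of 8 genes, EIF1AD, EIF2S1, EIF3J, EIF4A3, EIF4E, EIF4G1, EIF5 and EIF5B.

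**Figure D1:**
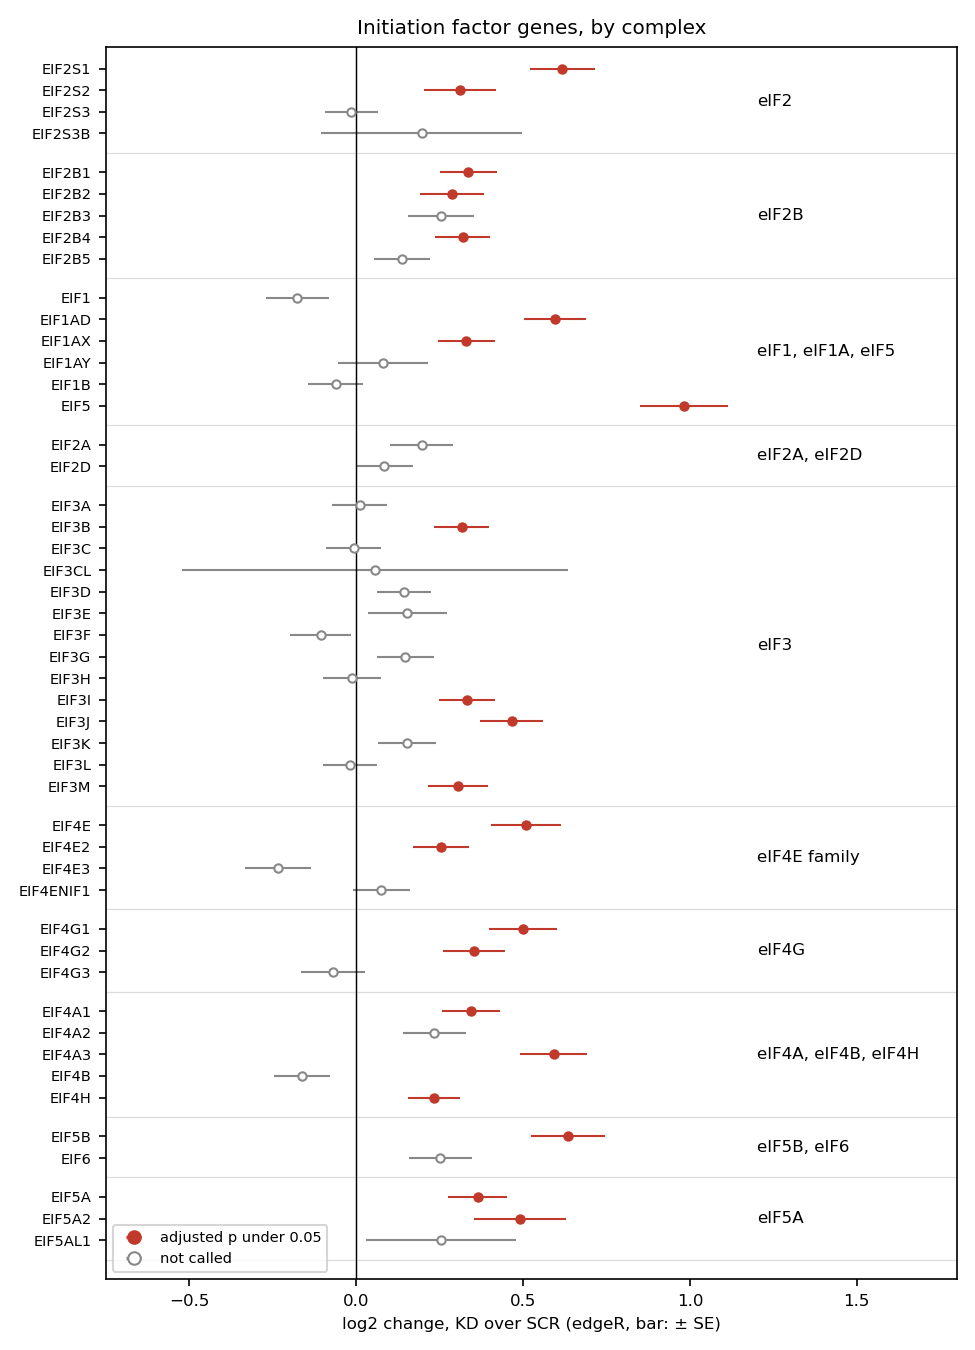
Log2 change (KD over SCR, x axis) of the 48 initiation factor genes tested, grouped by complex; points are edgeR estimates, bars are ± SE, and filled red points have an adjusted p under 0.05. EIF5 lies farthest to the right at 0.98, and the 22 filled points all lie above 0.

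Of the 6 genes grouped with start-codon choice 3 rose and 0 fell, and EIF5 changed most of all initiation factor genes. EIF5 (ENSG00000100664.11, chromosome 14, 103333544 to 103345025, GRCh38) encodes the protein that makes eIF2 hydrolyse its GTP at a start codon. It was at 397, 393 and 419 CPM in the KD libraries, against 263, 180 and 169 CPM in the SCR libraries. The groups were far apart, with SCR library 1 the highest control. The rise was 1.98-fold (log2 change 0.98 ± 0.13 SE, adjusted p = 0.000199) and ranked 133 among the 2328 genes called higher. Its log2 change stayed between 0.86 and 1.21 when each library was left out. EIF1 encodes the protein that opposes eIF5 by holding the subunit open for scanning, and it lay at 785, 829 and 717 CPM in KD libraries, against 787, 936 and 911 CPM in SCR libraries. Its groups overlapped, and its log2 change of -0.18 ± 0.09 was not called (adjusted p = 0.169). The log2 ratio of EIF5 to EIF1 was -0.94 ± 0.15 in KD libraries and -2.13 ± 0.48 in SCR libraries (SD, n = 3 each), a pair chosen after its values were seen and given as a description.

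EIF1AX, the X-linked gene of eIF1A, which works beside eIF1 in scanning, was at 136, 137 and 143 CPM in KD libraries, against 121, 106 and 104 CPM in SCR libraries. The groups did not overlap, and the log2 change of 0.33 ± 0.09 was called (adjusted p = 0.00991). That call was lost without SCR library 2 (adjusted p = 0.0665) and without SCR library 3 (0.0507), where the log2 changes were 0.30 and 0.29. EIF1AD, which shares the eIF1A fold and takes part in assembly of the small ribosomal subunit, rose 1.51-fold. Its levels were 38.1, 39.0 and 40.9 CPM in KD libraries, against 28.5, 24.0 and 25.8 CPM in SCR libraries (adjusted p = 0.000513). BANF1 lies on the other strand with exons that overlap those of EIF1AD, and averaged 179.6 CPM in KD and 156 CPM in SCR cells (log2 change 0.20, adjusted p = 0.0925). The kit marks strand, but no source used here says whether counting was by strand, so reads of such pairs may mix. EIF1B, a close relative of EIF1, averaged 40.7 ± 0.881 CPM in KD and 42.5 ± 0.970 CPM in SCR cells, with groups that did not overlap and no call (adjusted p = 0.607). EIF1AY, the Y-linked copy of EIF1AX, was tested and not called (adjusted p = 0.68).

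**Figure D2:**
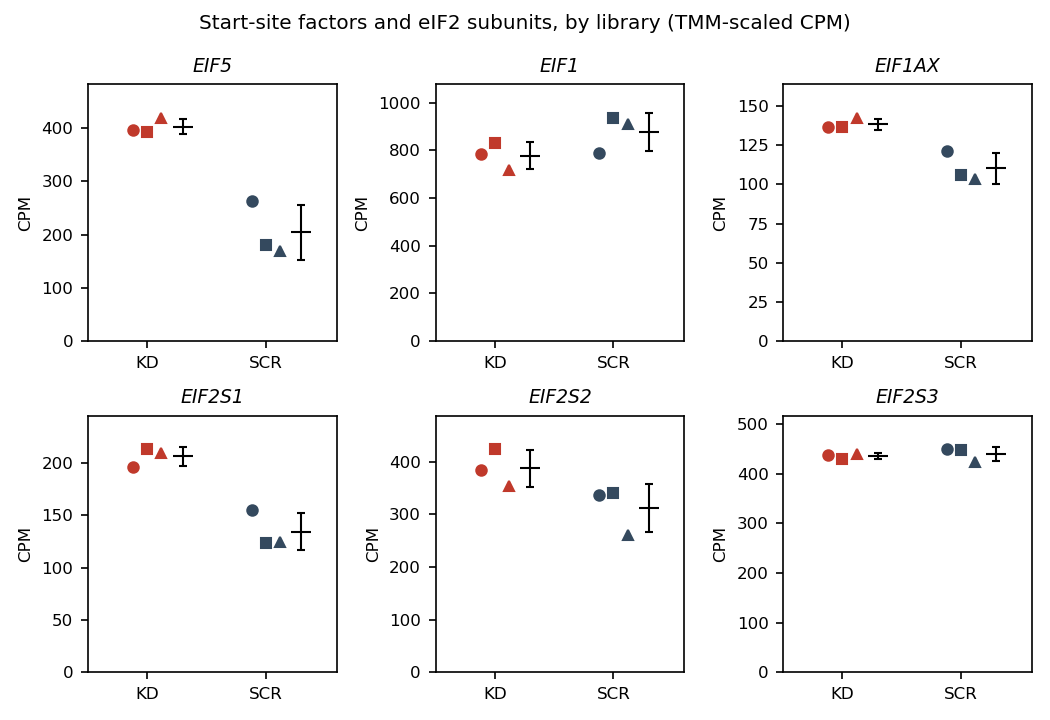
CPM (y axis, from 0) of the start-site factors EIF5, EIF1 and EIF1AX and the eIF2 subunits EIF2S1, EIF2S2 and EIF2S3 in each library, KD left and SCR right; circles, squares and triangles are libraries 1, 2 and 3, and the black mark is the mean ± SD. The groups are apart for EIF5, EIF1AX, EIF2S1 and EIF2S2, and overlap for EIF1 and EIF2S3.

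Of the eIF2 trimer, the alpha and beta subunits rose and the gamma subunit was not called. EIF2S1 (chromosome 14, 67359997 to 67386516), which encodes the alpha subunit that stress kinases phosphorylate, rose 1.53-fold. It was at 196, 213 and 209 CPM in KD libraries, against 155, 124 and 124 CPM in SCR libraries (log2 change 0.62 ± 0.10, adjusted p = 0.000513). ATP6V1D, which overlaps its exons on the other strand, was much lower, at a mean of 28.9 CPM in KD and 23.5 CPM in SCR cells. EIF2S2, the beta subunit, was at 385, 423 and 353 CPM in KD libraries, against 337, 339 and 260 CPM in SCR libraries. Its KD libraries all lay above the controls by a narrow margin (log2 change 0.31 ± 0.11, adjusted p = 0.0404). That call was lost without KD library 1 (adjusted p = 0.0855), KD library 2 (0.117), SCR library 2 (0.0543) or SCR library 3 (0.192, with a log2 change of 0.19), and with upper-quartile scaling (0.0832). EIF2S3, the gamma subunit that binds GTP and the tRNA, was at 438, 430 and 440.1 CPM in KD libraries, against 449, 448 and 424 CPM in SCR libraries. Its groups overlapped, and the log2 change was -0.01 ± 0.08 (adjusted p = 0.906). As a description of subunits picked after their values were seen, the log2 ratio of EIF2S1 to EIF2S3 was -1.16, -1.01 and -1.07 in KD libraries and -1.53, -1.85 and -1.77 in SCR libraries. EIF2S3B, a near-identical copy of EIF2S3 on chromosome 12, averaged 1.34 ± 0.314 CPM in KD and 1.17 ± 0.0949 CPM in SCR cells and may share reads with it.

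All 5 subunits of eIF2B had positive changes, and 3 were called. EIF2B1, in the regulatory part of the complex that senses phosphorylated eIF2, was at 89.2, 101.1 and 93.3 CPM in KD libraries, against 80.0, 72.4 and 72.9 CPM in SCR libraries (log2 change 0.34 ± 0.09, adjusted p = 0.00872). EIF2B4, also regulatory, was at 84.5, 87.4 and 83.8 CPM in KD libraries, against 72.3, 64.8 and 68.0 CPM in SCR libraries (0.32 ± 0.08, adjusted p = 0.00902). The remaining regulatory subunit gene, EIF2B2, was at 44.7, 51.6 and 43.0 CPM in KD libraries, against 40.6, 37.9 and 35.8 CPM in SCR libraries (0.29 ± 0.10, adjusted p = 0.0332). The called genes were thus the regulatory subunits, and the catalytic ones were not called. EIF2B5, the catalytic epsilon subunit, averaged 88.8 ± 4.74 CPM in KD and 81.0 ± 4.29 CPM in SCR cells (adjusted p = 0.229). Its partner EIF2B3 averaged 58.4 ± 6.10 CPM in KD and 49.1 ± 4.11 CPM in SCR cells, with no overlap and an adjusted p of 0.0619. The difference between regulatory and catalytic subunits was not tested. The calls were lost without SCR library 2 for EIF2B1 (adjusted p = 0.0591) and EIF2B4 (0.0692). For EIF2B2 the call was lost without SCR library 2 (0.112), SCR library 3 (0.125), KD library 1 (0.0557) or KD library 2 (0.123), and with upper-quartile scaling (0.0793). DDX55, which overlaps EIF2B1 on the other strand, averaged 67.6 CPM in KD and 51.1 CPM in SCR cells (log2 change 0.40, adjusted p = 0.00296).

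EIF2A and EIF2D encode single-chain proteins that can bring the initiator tRNA without eIF2, and neither was called. EIF2A averaged 119 ± 11.7 CPM in KD and 104 ± 8.58 CPM in SCR cells (adjusted p = 0.127). EIF2D averaged 102 ± 7.88 CPM in KD and 96.5 ± 3.09 CPM in SCR cells (adjusted p = 0.48).

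Among the 14 eIF3 genes, which encode the large scaffold that keeps the small subunit ready for an mRNA, 4 rose and 0 fell, with a median log2 change of 0.15. EIF3J, a loosely bound subunit, rose most. It was at 149.98, 159 and 168 CPM in KD libraries, against 131, 110.4 and 105 CPM in SCR libraries (log2 change 0.47 ± 0.10, adjusted p = 0.00246). EIF3B and EIF3I sit together in the module of eIF3 that is conserved down to yeast. EIF3I was at 349, 381 and 341 CPM in KD libraries, against 296, 269 and 286 CPM in SCR libraries (0.33 ± 0.08, adjusted p = 0.00816). EIF3B was at 306, 312 and 295 CPM in KD libraries, against 262, 228 and 243 CPM in SCR libraries (0.32 ± 0.08, adjusted p = 0.0103). The third subunit of that module, EIF3G, had 195, 215 and 181 CPM in KD libraries and 179, 175 and 180.1 CPM in SCR libraries, and was not called (adjusted p = 0.2). EIF3M, a subunit of the octameric core, was at 247, 273 and 244 CPM in KD libraries, against 217, 216 and 186 CPM in SCR libraries (0.31 ± 0.09, adjusted p = 0.018). The calls were lost without SCR library 2 for EIF3B (adjusted p = 0.0811) and EIF3I (0.0635), and without SCR library 3 for EIF3M (0.095).

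Of the remaining eIF3 genes 0 were called, also by limma-voom and DESeq2, and 0 had an unadjusted p under 0.05. EIF3A, the largest subunit, averaged 597 ± 31.1 CPM in KD and 592 ± 10.04 CPM in SCR cells, and EIF3L averaged 585 ± 26.8 CPM in KD and 593 ± 12.8 CPM in SCR cells. EIF3H averaged 603 ± 38.8 CPM in KD and 608 ± 35.8 CPM in SCR cells, and EIF3F averaged 262 ± 24.8 CPM in KD and 281 ± 16.8 CPM in SCR cells. Their log2 changes ran from -0.11 for EIF3F to 0.01 for EIF3A, with groups that overlapped. EIF3E had the highest CPM of all initiation factor genes and was at 1437, 1976 and 1600.4 CPM in KD libraries, against 1660.01, 1528 and 1321 CPM in SCR libraries (adjusted p = 0.347). KD library 2 was the highest of the 6, and KD library 1 lay below 2 of the 3 controls. EIF3D, the subunit that can itself bind caps, and EIF3K had KD libraries above all SCR libraries but no call (log2 changes 0.14 and 0.15, adjusted p = 0.189 and 0.201). EIF3C and EIF3CL are near-identical copies on chromosome 16 that cannot be told apart reliably by short reads. EIF3CL alone ran from 6.36 to 52.8 CPM in KD libraries and from 8.66 to 36.3 CPM in SCR libraries. The sum of both was 1179.8, 1138 and 1108 CPM in KD libraries, against 1135, 1111 and 1187 CPM in SCR libraries, with overlapping groups.

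Of the eIF4F genes, EIF4E, EIF4G1 and EIF4A1 were called higher, while the second helicase EIF4A2 and the scaffold EIF4G3 were not called. EIF4E (chromosome 4, 98871684 to 98930637), the cap-binding protein and a limiting step for many growth-promoting mRNAs, was at 121, 122 and 118 CPM in KD libraries, against 98.4, 84.0 and 70.7 CPM in SCR libraries. The groups did not overlap, and the change was 1.42-fold (log2 change 0.51 ± 0.11, adjusted p = 0.00266). EIF4G1 (chromosome 3, 184314495 to 184335358), the main scaffold, was at 911, 763 and 849.9 CPM in KD libraries, against 659.6, 524 and 601 CPM in SCR libraries (1.41-fold, adjusted p = 0.00237). EIF4A1 (chromosome 17, 7572706 to 7579005), the main helicase, was at 713, 726 and 688 CPM in KD libraries, against 608, 544 and 523 CPM in SCR libraries (1.27-fold, adjusted p = 0.00819). In each of these 3 genes SCR library 1 was the highest control. The calls of EIF4E and EIF4G1 held without any 1 library, and that of EIF4A1 was lost without SCR library 2 (adjusted p = 0.0534, log2 change 0.32 in place of 0.34).

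Of the paralogs of EIF4A1 and EIF4G1, EIF4A3 and EIF4G2 rose and EIF4A2 and EIF4G3 were not called. EIF4A2, the second helicase, was at 629.6, 659.6 and 692 CPM in KD libraries, against 602, 593 and 489.9 CPM in SCR libraries. Its groups did not overlap, but the log2 change of 0.23 ± 0.09 was not called (adjusted p = 0.0734); it was called by DESeq2 (0.0416) and without SCR library 1 (0.0425). Per kilobase of the principal transcript, EIF4A1 was at 404 CPM in KD and 318 CPM in SCR cells, and EIF4A2 at 344 CPM in KD and 293 CPM in SCR cells, so the levels of both helicases were close. EIF4A3, a relative that serves the exon junction complex rather than cap-dependent initiation, rose 1.51-fold. It was at 249, 252 and 239 CPM in KD libraries, against 193, 150.2 and 148 CPM in SCR libraries (adjusted p = 0.000828). EIF4G2, which lacks the eIF4E-binding part of EIF4G1, was at 1339.6, 1248 and 1448 CPM in KD libraries, against 1148, 1020.1 and 995 CPM in SCR libraries (log2 change 0.35 ± 0.09, adjusted p = 0.0109). EIF4G3, a scaffold like EIF4G1, was at 149.8, 115 and 136 CPM in KD libraries, against 141, 138 and 141 CPM in SCR libraries, and was not called (adjusted p = 0.607). Per kilobase in SCR cells, EIF4G2 was highest at 263 CPM, EIF4G1 followed at 108 CPM and EIF4G3 was lowest at 24.1 CPM. The call of EIF4G2 was lost without KD library 3 (adjusted p = 0.0682), SCR library 2 (0.065) or SCR library 3 (0.0517). CTR9, which overlaps its exons on the other strand, averaged 93.9 CPM in KD and 73.8 CPM in SCR cells (adjusted p = 0.00602).

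**Figure D3:**
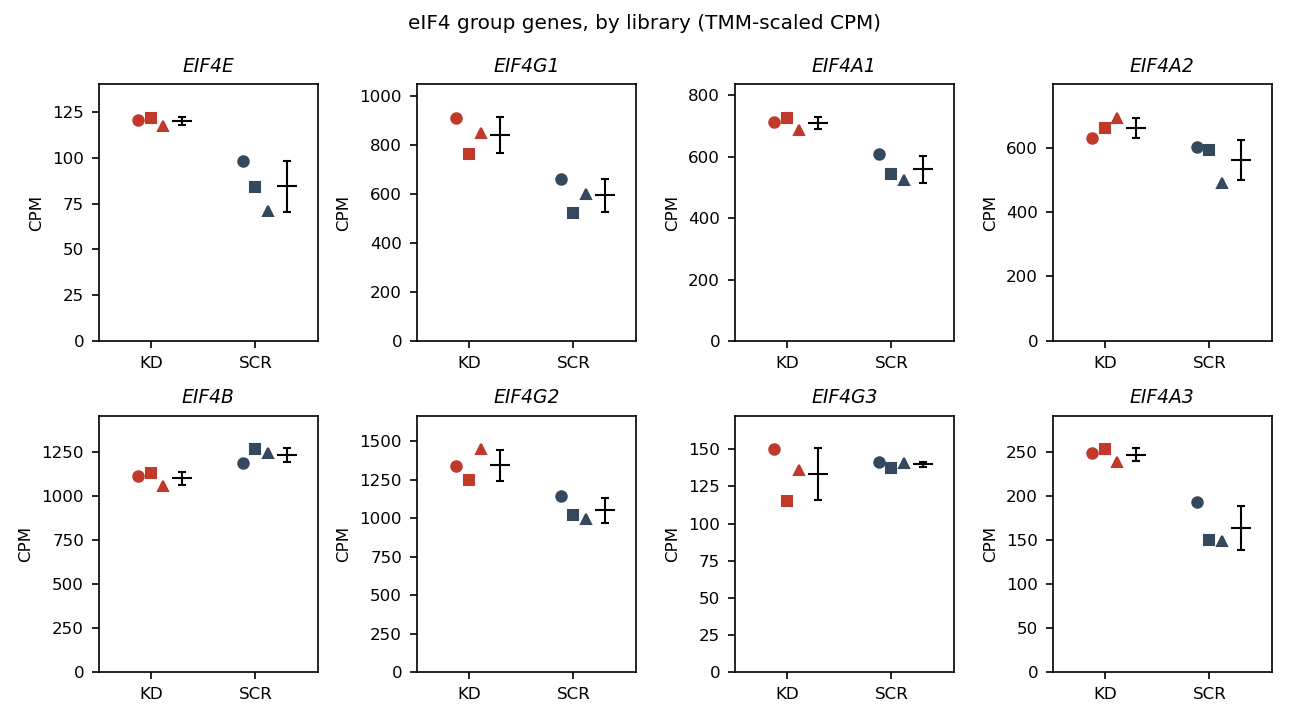
CPM (y axis, from 0) of 8 eIF4 group genes in each library, KD left and SCR right; circles, squares and triangles are libraries 1, 2 and 3, and the black mark is the mean ± SD. KD libraries lie above SCR libraries for EIF4E, EIF4G1, EIF4A1, EIF4A2, EIF4G2 and EIF4A3, below them for EIF4B, and on both sides of them for EIF4G3.

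The remaining cap-binding proteins and helicase cofactors showed smaller differences. EIF4E2, a cap-binding repressor of translation, was at 124, 139 and 126 CPM in KD libraries, against 115, 107 and 104 CPM in SCR libraries (log2 change 0.25 ± 0.08, adjusted p = 0.0314). EIF4E3, another cap-binding relative, was at 20.3, 19.4 and 20.2 CPM in KD libraries, against 25.4, 23.0 and 22.0 CPM in SCR libraries. Its KD libraries all lay below the controls, but the log2 change of -0.24 ± 0.10 was not called (adjusted p = 0.0829), except with upper-quartile scaling (0.0336). EIF4ENIF1, which carries eIF4E into the nucleus and to processing bodies, averaged 37.0 ± 0.986 CPM in KD and 35.1 ± 1.59 CPM in SCR cells (adjusted p = 0.536). EIF4H, a helicase cofactor, was at 338, 332 and 332 CPM in KD libraries, against 298, 275 and 278 CPM in SCR libraries (0.23 ± 0.08, adjusted p = 0.0353). EIF4B, the related cofactor, was at 1112, 1128 and 1056 CPM in KD libraries, against 1185, 1262 and 1242 CPM in SCR libraries. Its KD libraries all lay below the controls, with a log2 change of -0.16 ± 0.08 that was not called (adjusted p = 0.151). The call of EIF4E2 was lost without KD library 1 (adjusted p = 0.0551), KD library 2 (0.0775), KD library 3 (0.0646), SCR library 2 (0.128) or SCR library 3 (0.117), with no low-count filter (0.0648) and with upper-quartile scaling (0.0812). The call of EIF4H was lost without KD library 1 (0.106), KD library 3 (0.0967), SCR library 2 (0.162) or SCR library 3 (0.111), with no low-count filter (0.0921), with upper-quartile scaling (0.0944) and with the replicate number as a block (0.0594).

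The E-box CACGTG, the sequence that MYC and related factors bind, was searched for in RefSeq promoter windows (GRCh38.p14, 250 bases before to 50 bases after each start). It was found in 10 of the 42 initiation factor genes with a window (23.8%), and in 8.77% of all 27305 genes with one. Those 27305 genes were not limited to genes that passed the filter on low counts, and no share over tested genes was computed. Of these 10 genes 5 were called higher (EIF4A3, EIF4E, EIF4G1, EIF4H and EIF5A2) and 5 were not called (EIF1B, EIF2B3, EIF3F, EIF3K and EIF4B), so the motif was present on both sides. The stretches of the 5 called genes are shown beside those of EIF4B and EIF3F, which were not called, each 5′ to 3′ on the strand of its gene with the E-box in capitals. EIF4E, EIF4G1 and EIF5A2 held it at 2 places.
EIF4E, chr4:98929341-98929370, minus strand: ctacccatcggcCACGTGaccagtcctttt
EIF4E, chr4:98929188-98929217, minus strand: ggacatatccgtCACGTGgccagaagctgg
EIF4G1, chr3:184314450-184314479, plus strand: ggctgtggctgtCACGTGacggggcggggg
EIF4G1, chr3:184314527-184314556, plus strand: ccctgcgccggtCACGTGggggcgccggct
EIF4A3, chr17:80147232-80147261, minus strand: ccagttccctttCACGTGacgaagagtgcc
EIF4H, chr7:74174145-74174174, plus strand: acgccgccgcacCACGTGggctgcagagcg
EIF5A2, chr3:170908807-170908836, minus strand: actaatccgcagCACGTGgggttgccaggg
EIF5A2, chr3:170908782-170908811, minus strand: cagggcgctcttCACGTGactgggcggagc
EIF4B, chr12:53006422-53006451, plus strand: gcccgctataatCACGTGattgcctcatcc
EIF3F, chr11:7987257-7987286, plus strand: aaagctctagctCACGTGgtgtatattcag
Windows are set by RefSeq starts, which differ from the GENCODE gene starts printed here for EIF4E and EIF4G1. Both EIF4E stretches lie inside the GENCODE gene, 72 and 225 bases before the RefSeq start by their E-boxes, and so does the EIF4G1 stretch 67 bases before its RefSeq start. These 3 stretches and those of EIF4B and EIF3F fall with all 30 bases in annotated exons, so the stretches shown are not all upstream of transcribed sequence. The EIF4A3 stretch has 12 bases in annotated exons, and those of EIF4H and EIF5A2 and the other of EIF4G1 have 0. The composite TGATGNAA, a core of the sites that ATF4 binds with C/EBP partners, was searched for on both strands. It was in 1 of the 42 genes, EIF4E3, and in 4.46% of all 27305 genes with a window, again not limited to tested genes. A match describes these letters and not binding, which was not measured.

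Among the late factors EIF5B, EIF5A and EIF5A2 rose. EIF5B (chromosome 2, 99337353 to 99401326), the GTPase that joins the large subunit, was at 237, 228 and 231 CPM in KD libraries, against 180.1, 143 and 126 CPM in SCR libraries. The groups were well apart, and the change was 1.55-fold (log2 change 0.63 ± 0.11, adjusted p = 0.000945). EIF6, which keeps free large subunits from joining too early, was at 117, 147 and 123 CPM in KD libraries, against 114, 109 and 103 CPM in SCR libraries (adjusted p = 0.0557). It was called by DESeq2 (0.0448) and without KD library 1 (0.0455). EIF5A, the hypusine-bearing factor that helps ribosomes through difficult peptide bonds, was at 504, 536 and 467 CPM in KD libraries, against 421, 367 and 383 CPM in SCR libraries (1.29-fold, adjusted p = 0.00683). GPS2, which overlaps EIF5A on the other strand, averaged 10.8 CPM in KD and 6.35 CPM in SCR cells. The paralog EIF5A2 was far lower, at 10.02, 8.92 and 10.6 CPM in KD libraries and 6.32, 6.99 and 7.66 CPM in SCR libraries, and rose 1.41-fold (adjusted p = 0.0145). Per kilobase the SCR levels were 258 CPM for EIF5A and 1.25 CPM for EIF5A2. EIF5AL1, an intronless copy of EIF5A, averaged 4.07 ± 0.606 CPM in KD and 3.40 ± 0.959 CPM in SCR cells, was not called (adjusted p = 0.415), and may share reads with EIF5A. Without SCR library 2 the calls of EIF5A (adjusted p = 0.055) and EIF5A2 (0.0545) were lost, and that of EIF5A2 was lost without KD library 3 as well (0.0754).

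A plain ratio of CPM between genes in the same library does not depend on how libraries are scaled. The pseudocount of 0.5 CPM added here leaves some dependence, largest for low genes such as EIF5A2. Of 8 pairs of related factors, 4 had KD and SCR libraries that did not overlap. Each of these 4 had an exact permutation p of 0.1, the smallest that 3 against 3 libraries can give (2-sided, adjusted p = 0.2 over the 8 pairs). For single genes, groups did not overlap in 46.0% of all genes tested, and no share over other gene pairs was computed. The log2 ratio of EIF4G1 to EIF4G3 was 2.65 ± 0.06 in KD and 2.08 ± 0.15 in SCR libraries (SD, n = 3 each). The log2 ratio of EIF4E to EIF4E2 was -0.11 ± 0.07 in KD and -0.38 ± 0.17 in SCR libraries. For EIF1AX over EIF1 it was -2.48 ± 0.14 in KD and -2.99 ± 0.26 in SCR libraries, and for EIF4B over EIF4H it was 1.72 ± 0.05 in KD and 2.11 ± 0.11 in SCR libraries. Ratios of EIF4A1 to EIF4A2, EIF4G1 to EIF4G2, EIF5A to EIF5A2 and EIF1 to EIF1B overlapped between the groups.

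**Figure D4:**
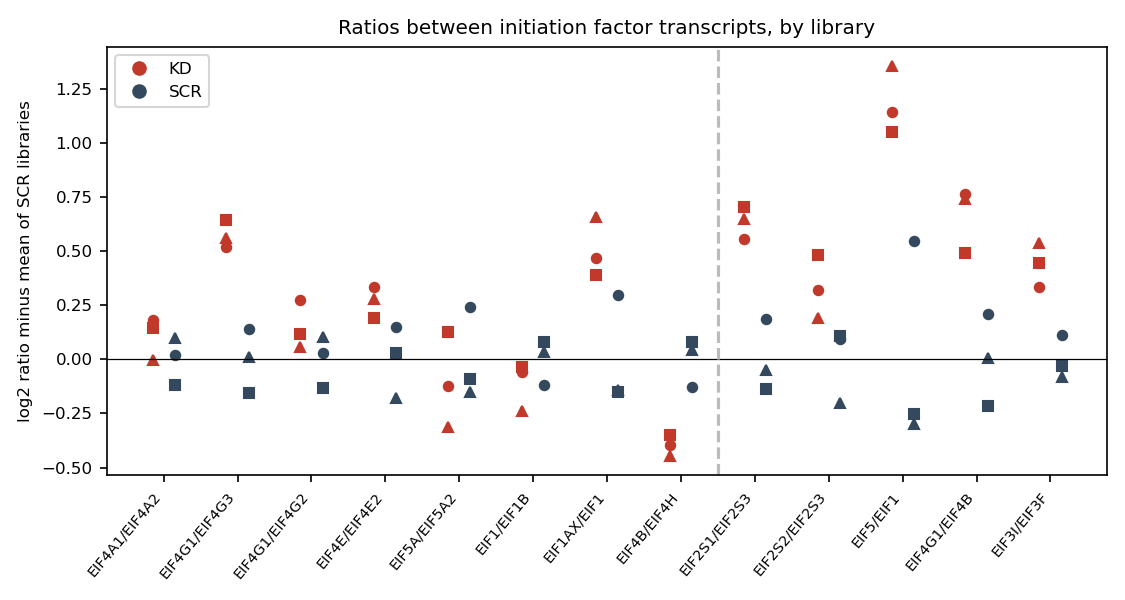
Log2 ratio of the CPM of each pair of genes in each library, minus the mean of the SCR libraries (y axis); red is KD and dark blue SCR, and circles, squares and triangles are libraries 1, 2 and 3. Pairs right of the dashed line were chosen after their values were seen. EIF4G1/EIF4G3, EIF4E/EIF4E2 and EIF1AX/EIF1 are higher in all KD libraries, EIF4B/EIF4H is lower, and SCR library 1 is the highest control for EIF5/EIF1.

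Initiation factors can be grouped by known regulation of their mRNAs. EIF3E, EIF3F, EIF3H and EIF4B have mRNAs with a terminal oligopyrimidine tract (TOP), which links their translation to mTORC1, as in ribosomal proteins. Of these 4 genes 0 were called, with a median log2 change of -0.06 and a range from -0.16 for EIF4B to 0.15 for EIF3E. Of them, 0 had an unadjusted p under 0.05, and limma-voom and DESeq2 called 0. KD library 2 was the highest KD library in all 4, and without it the median was -0.11 and 0 were called (EIF3E then at 0.016, adjusted p = 0.919). Among the other 44 genes tested 22 rose, with a median of 0.25. EIF4E, EIF4A1, EIF4G1 and EIF2S1, known in other cells as MYC targets, all rose, with a median log2 change of 0.50. Both lists were chosen with earlier results of these data known, so they are given as a description. The difference between them was not tested. MYC itself had a log2 change of 0.03 (adjusted p = 0.826).

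Other genes that act with the initiation factors were read from the same fit. The shares called are to be set beside the 15.9% higher and 15.9% lower over all genes tested. Of 9 genes listed as helper factors of initiation and reinitiation 8 rose (88.9%) and 0 fell, with a median log2 change of 0.42. DHX9, DENR, NPM1 and MCTS1 were among the rises, and RACK1 was not called. DDX3X, a helicase for structured leaders, rose 1.51-fold, ABCF1, which binds eIF2, 1.36-fold, ABCE1, the recycling ATPase, 1.40-fold, and DHX29, a scanning helicase, 1.41-fold. Without SCR library 2 or SCR library 3, 5 of the 9 were called higher, and without each of the other libraries 6 to 8. Of 12 termination, recycling and rescue genes, which include ABCE1 again, 6 rose (50%) and 2 fell (16.7%). ETF1, the release factor that reads stop codons, averaged 313 ± 0.235 CPM in KD and 208 ± 25.6 CPM in SCR cells (adjusted p = 0.000506), and its partner GSPT1 averaged 337 ± 20.2 CPM in KD and 254 ± 31.1 CPM in SCR cells (adjusted p = 0.00616). Of these 12, 3 were called higher without SCR library 2 and 4 to 8 without each of the others. The falls numbered 0 without KD library 1, KD library 3, SCR library 2 or SCR library 3, and 1 without KD library 2. Of 17 elongation factors and their modifying enzymes 4 rose (23.5%) and 2 fell (11.8%). The falls numbered 5 without KD library 2 and 1 without KD library 3 or any 1 SCR library. With all libraries in the fit, the rises were DPH2, DOHH, EEF2KMT and EEF1E1, and the falls EEF2K and EEFSEC. EEF1A1, EEF1B2, EEF1D, EEF1G and EEF2 were not called in that fit. For EEF1G and EEF2 all KD libraries lay below the controls. DOHH, which completes hypusine on eIF5A, averaged 23.5 ± 3.44 CPM in KD and 13.2 ± 0.859 CPM in SCR cells (1.75-fold, adjusted p = 0.000337), and DPH2, an enzyme of diphthamide synthesis, rose 1.79-fold. The list of cytosolic aminoacyl-tRNA synthetases moved both ways, with 7 rises (30.4%) and 6 falls (26.1%) of 23. It also held AIMP1, AIMP2 and EEF1E1, scaffold proteins of the synthetase complex, which were all among the rises. EEF1E1 was in the elongation list as well. The synthetases that rose were RARS1, HARS1, FARSB and IARS1. Those that fell were AARS1, SARS1, MARS1, CARS1, QARS1 and GARS1. Without 1 library the falls numbered 2 (KD library 3 or SCR library 2) to 6, with 3 without KD library 1 or SCR library 3. AARS1 averaged 184 ± 10.2 CPM in KD and 277 ± 25.0 CPM in SCR cells, and RARS1 averaged 127.5 ± 5.82 CPM in KD and 85.8 ± 12.9 CPM in SCR cells. Of 85 ribosomal protein genes and paralogs 4 rose (4.71%), all of them paralogs (RPL7L1, RPL26L1, RPS27L and RPL22L1), and 0 fell. With an unadjusted p under 0.05 there were 8, of which 1, RPL12, was lower in KD cells. KD library 2 stood apart in these genes, above KD libraries 1 and 3 in 84 of the 85 and above all other libraries in 82. Their summed level was 97146, 125483 and 95912 CPM in KD libraries, against 105321, 104633 and 98037 CPM in SCR libraries. Without KD library 2, 4 were called higher and 5 lower, and with no low-count filter 5 higher and 1 lower.

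**Figure D5:**
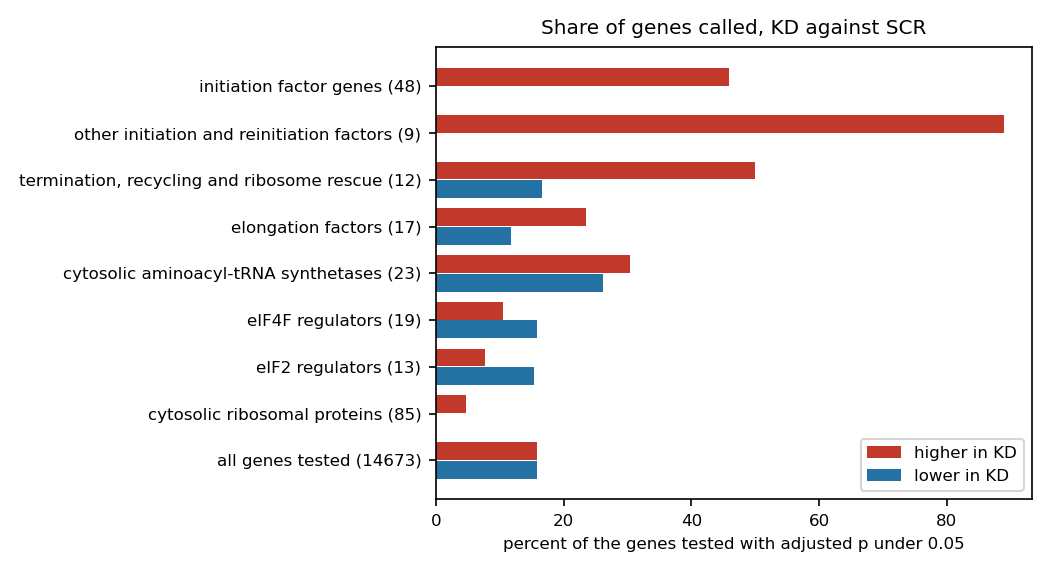
Percent of the genes tested that were called higher (red) or lower (blue) in KD cells (x axis), for initiation factor genes and 7 lists of related genes, with all genes tested at the bottom; the number tested is in parentheses. Initiation factor genes were called higher in 45.8%, against 15.9% of all genes, and ribosomal protein genes in 4.71%.

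Regulators of the same steps were called higher or lower in shares at or below those of all genes (15.9% in each direction). EIF4EBP1, the main 4E-BP that blocks eIF4E, averaged 169.8 ± 20.6 CPM in KD and 203 ± 14.9 CPM in SCR cells, a log2 change of -0.26 ± 0.10 that was not called (adjusted p = 0.0556). It was called without KD library 2 (0.00877), without SCR library 1 (0.036), by DESeq2 (0.0397), with the replicate block (0.0363) with upper-quartile scaling (0.0258), with no low-count filter (0.0299) and with at least 1 CPM in 3 libraries (0.0432). EIF4EBP3 was likewise not called (log2 change -0.33, adjusted p = 0.0559), nor was EIF4EBP2 (-0.05, adjusted p = 0.715). PDCD4, which binds eIF4A and blocks it, fell 1.47-fold, to 66.3 ± 2.21 CPM in KD cells, against 96.9 ± 9.92 CPM in SCR cells (adjusted p = 0.000667). EIF4EBP3 was called without KD library 2 (0.0154), with the replicate block (0.0377), with upper-quartile scaling (0.0322), with no low-count filter (0.0302) and with at least 1 CPM in 3 libraries (0.0458). In all, of 19 eIF4F regulators 2 rose (10.5%), among them PABPC4, a poly(A)-binding protein (1.35-fold), and 3 fell (15.8%). The falls numbered 5 without KD library 2, with upper-quartile scaling, with no low-count filter, with the CPM filter and with the replicate block, and the rises 1 without KD library 1, KD library 3, SCR library 2 or SCR library 3. Of 13 eIF2 regulators 1 rose (7.69%) and 2 fell (15.4%). With any 1 of those 4 libraries left out 0 rose and 1 fell, the calls lost being those of EIF2AK2 and of the phosphatase subunit PPP1CC, and without KD library 2 there were 3 falls. EIF2AK3, the kinase PERK, fell 1.52-fold, to 51.3 ± 4.54 CPM in KD cells, against 77.7 ± 3.36 CPM in SCR cells (adjusted p = 0.000337), while EIF2AK2, the kinase PKR, had a log2 change of 0.33 with overlapping groups (adjusted p = 0.0234). The call of EIF2AK2 was lost without KD library 1 (0.0758), KD library 3 (0.134), SCR library 2 (0.121) or SCR library 3 (0.0753). EIF2AK1 and EIF2AK4 had log2 changes of 0.01 and -0.01. ATF4, the factor translated when eIF2 is phosphorylated, was not called at a log2 change of -0.14 (adjusted p = 0.305), and was called without KD library 2 (log2 change -0.24, adjusted p = 0.0285). For PPP1R15A, which directs the phosphatase to eIF2, the log2 change was -0.10 (adjusted p = 0.517).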

How the data were processed

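Total RNA was prepared by miRNeasy Micro kit and polyA+ libraries by TruSeq Stranded mRNA kit, as the labels' protocols state. The submitters' processing notes name Trim Galore 0.6.4, STAR 2.7.9a, RSEM and the build GRCh38.p13. The deposited values are whole numbers per gene, read here to be RSEM expected counts that the authors had rounded. No source used here gives the annotation or says whether strand was used. RSEM divides reads among the genes they match, which leaves near-identical copies uncertain.

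Counts of 44 pseudoautosomal Y entries were merged with the X entries. Symbols were found for 60652 of 60664 genes by gene ID, and coordinates and transcript lengths for 58396 in GENCODE release 29. edgeR 4.0.16 in R 4.3.3 was used (filterByExpr, TMM scaling, quasi-likelihood F test, no covariate, 2-sided), with Benjamini-Hochberg adjustment over 14673 genes. The SE is approximate, computed as log2 change over the root of F. CPM rests on TMM-scaled totals. Levels per kilobase divide by the longest principal transcript, which may not be the one expressed. Ratios had a pseudocount of 0.5 CPM. Within groups, libraries varied beyond counting error (chi-square over its degrees of freedom 2.81 to 16.5).

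Every initiation factor gene was accounted for. Values per library went to called genes and to eIF4F and eIF2 subunits. Other genes named were those of EIF4EBP and EIF2AK, ATF4, PPP1R15A and up to 4 per list with the smallest adjusted p. Some further list members are named without values to show what a list held. Members and lists were chosen with earlier results of these data known. The alternatives were RLE or upper-quartile scaling, no filter on low counts, at least 1 CPM in 3 libraries, DESeq2 1.42.0, limma-voom (limma 3.58.1), a replicate block, other pseudocounts for ratios, and each library left out. Tested on simulated data for KD against SCR with 14673 genes, the procedure recovered 68 of 100 genes changed 1.5-fold and 86 of 100 changed 2-fold, and 11 of 165 calls fell on unchanged genes. Far fewer genes were changed there than the 31.7% called in the data, and no simulated library stood apart. Recovery in the data may therefore differ.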

Additional observations from a re-analysis of the deposited data

How the results depend on the processing

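With 1 library left out, 2704 to 5114 genes were called in all, 1264 to 2604 higher and 1440 to 2510 lower, with the lowest of each without SCR library 2. Initiation factor genes called, all of them higher, then numbered 9 to 23. With the other settings 18 to 24 were called higher, and 1 was called lower with upper-quartile scaling, EIF4E3. The libraries do not pair by number (correlations of same-numbered deviations 0.03, 0.10 and -0.03), and the replicate block gave 21 genes called higher. Genes not called changed sign in places. With upper-quartile scaling the log2 change was -0.0467 for EIF2AK1 and -0.0483 for EIF3A. With at least 1 CPM in 3 libraries it was -0.00122 for EIF2AK1 and -0.00271 for EIF3A, and with no low-count filter -0.00112 for EIF3A. EIF3CL was at -0.40 with limma-voom and -0.00516 with the replicate block. Over fits without 1 library, log2 changes ran from -0.15 to 0.028 for EIF4G3, -0.0361 to 0.0442 for EIF2AK1, -0.0455 to 0.0105 for EIF3L, -0.0155 to 0.0526 for EIF3A, -0.0564 to 0.0597 for EIF2AK4, -0.0416 to 0.00251 for EIF2S3, -0.0659 to 0.0268 for EIF3H, -0.11 to 0.0147 for EIF4EBP2, -0.0524 to 0.39 for EIF2S3B, -0.0416 to 0.0267 for EIF3C, -0.0696 to 0.18 for EIF1AY and -1.12 to 0.87 for EIF3CL. The difference in the log2 ratio of EIF5A to EIF5A2 was 0.0509 with a pseudocount of 5 CPM and -0.22 to 0.0173 without 1 library. The cause of these shifts was not tested.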
